A study of Homo sapiens with 6 samples.

Results

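The genes of sterol efflux described here are the cholesterol exporters ABCG1 and ABCA1, the liver X receptors NR1H3 and NR1H2, the receptor target MYLIP, the HDL receptor SCARB1, and the lysosomal sterol carriers NPC1 and NPC2. They were read in HUVECs, primary endothelial cells of the human umbilical vein, on Affymetrix Human Genome U133 Plus 2.0 arrays. Every probe set that the platform annotation assigns to exactly 1 of these symbols was taken. This gave 25 probe sets of 54613 tested, for 7 of the 8 members, and no probe set of the annotation used here named NR1H2 alone. ABCG1 had 4, ABCA1 4, NR1H3 1, MYLIP 6, SCARB1 5, NPC1 4 and NPC2 1.

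Of the 6 arrays, 3 held cells given an ANRIL siRNA (a small interfering RNA that targets ANRIL transcripts) and 3 held cells given a scrambled siRNA, the control. ANRIL, or CDKN2B-AS1, is a long noncoding RNA of a locus linked to coronary disease risk. The protocols give both groups 1 transfection reagent, TransIT-X2, and a growth medium with serum, growth factors and hydrocortisone, and state neither the time to harvest nor the number of donors. The labels do not say whether the 3 samples of a group came from separate cultures or donors, so the spread given below is that between these samples and may be technical.

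Cells get rid of cholesterol through ATP-driven exporters of the ABC family. ABCA1 passes cholesterol and phospholipid to lipid-poor apolipoprotein A-I, and ABCG1 adds sterol to HDL particles that are already formed. Both genes are classical targets of the liver X receptors (LXR), nuclear receptors that bind oxysterols and sit on DNA together with a retinoid X receptor. LXR also switches on MYLIP, a ubiquitin ligase that sends receptors of the LDL receptor family to degradation. In endothelium these exporters, and the uptake of HDL through SCARB1, are known for their part in keeping the plasma membrane and nitric oxide signalling intact. NPC1 and NPC2 release cholesterol from late endosomes and lysosomes, and so supply the sterol that the exporters remove.

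The promoter of ABCA1 is shown because its window in the sequence table matches the letters of the repeat that LXR dimers bind, and that of MYLIP because it is the other LXR target with a window. Both are the 250 bases before the RefSeq gene start in GRCh38.p14, written 5′ to 3′ on the strand of the gene, and capitals mark matches to 2 motifs, each searched on both strands. One was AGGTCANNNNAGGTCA, 2 receptor half-sites in direct repeat with a gap of 4 bases (DR4), allowing 2 mismatches. The other was the E-box CACGTG without a mismatch.
ABCA1, chr9:104928156-104928405, minus strand: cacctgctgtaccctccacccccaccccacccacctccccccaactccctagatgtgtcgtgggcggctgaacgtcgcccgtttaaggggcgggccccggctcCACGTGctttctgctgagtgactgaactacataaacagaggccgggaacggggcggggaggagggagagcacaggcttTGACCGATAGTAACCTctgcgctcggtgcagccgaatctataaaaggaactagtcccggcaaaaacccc
MYLIP, chr6:16128836-16129085, plus strand: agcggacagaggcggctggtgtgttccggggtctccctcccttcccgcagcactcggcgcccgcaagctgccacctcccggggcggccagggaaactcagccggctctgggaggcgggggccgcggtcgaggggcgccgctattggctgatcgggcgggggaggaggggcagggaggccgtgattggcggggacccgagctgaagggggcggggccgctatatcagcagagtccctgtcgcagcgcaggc
The DR4 match of ABCA1 lies 69 to 54 bases before the gene start and reads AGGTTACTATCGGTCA on the opposite strand, with 2 mismatches. Its E-box lies 147 to 142 bases before the start. Of 35116 RefSeq windows of this length, 2.03% held a DR4 match and 6.34% an E-box. The 10 windows available for 6 members, with 4 for NR1H3 and 2 for NPC2, held no other match to either motif, and MYLIP had none. ABCG1 and SCARB1 had no entry in the table. A match is a description of letters, and a window without one says only that the letters are not there.

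All values are RMA intensities on the log2 scale as deposited, where a difference of 1 is a doubling of signal, and differences are ANRIL siRNA minus control siRNA. The members were chosen by the ABCG1 difference between these 2 groups of arrays, which was already known when the genes around it were added, so their differences are given as a description, with the standard error (SE) and 95% interval of a limma fit over all probe sets. Probe sets differ in how strongly they respond, so their signals do not rank genes by RNA amount. With an adjusted p under 0.05 the fit called 0 of 54613 probe sets (0.0%) and 0 of 19775 genes (0.0%, each gene at its brightest probe set), and hence no member. Unadjusted, p lay under 0.05 for 8246 probe sets (15.1%) and 3557 genes (18.0%, with 8.16% lower and 9.83% higher). With a prior variance that follows signal and is robust to outliers, called the trended prior below, limma called 0.63% of probe sets, 0.577% lower and 0.0531% higher, of which 2 were members' probe sets. At gene level it called 2.74%, 2.15% lower and 0.582% higher, with ABCG1 among them.

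ABCG1 was lower in ANRIL siRNA cells at 3 of its 4 probe sets. At the brightest, 204567_s_at, the arrays read 7.97, 7.70 and 7.72 with ANRIL siRNA, against 8.40, 8.48 and 8.24 with control siRNA. The groups did not overlap, and the highest ANRIL siRNA array lay below the lowest control array. The means were 7.80 ± 0.15 and 8.37 ± 0.12 (SD, n = 3 each), a difference of −0.58 ± 0.09 (SE, 95% interval −0.79 to −0.37), or 1.49-fold lower.

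The second ABCG1 probe set, 230913_at, read 6.86, 6.42 and 6.44 with ANRIL siRNA, against 6.84, 7.10 and 6.82 with control siRNA. Here ANRIL siRNA replicate 1 lay within the control range while the other two lay below it, and the difference was −0.35 ± 0.12 (SE). That same array was also the highest of its group at 204567_s_at. The third, 211113_s_at, read 6.66, 6.50 and 6.69 with ANRIL siRNA, against 6.66, 7.00 and 6.90 with control siRNA, a difference of −0.24 ± 0.10. The groups met at control replicate 1, which read as low as the ANRIL siRNA arrays. The dimmest, 232081_at, lay at percentile 28.7 of mean signal and had the widest control spread, with 5.03, 4.99 and 5.17 in ANRIL siRNA cells, against 4.98, 5.30 and 4.69 in control cells. Its difference was 0.07 ± 0.13, and its interval of −0.22 to 0.37 includes the differences of none of the other 3 ABCG1 probe sets.

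Leaving out 1 array at a time moved 204567_s_at between −0.67 (without ANRIL siRNA replicate 1) and −0.53 (without control siRNA replicate 2). For 230913_at the same range was −0.49 to −0.26, and for 211113_s_at it was −0.34 to −0.17. At 232081_at the sign turned to −0.08 without control siRNA replicate 3. With the trended prior 204567_s_at was called (adjusted p = 0.00749), and it was called in 5 of 6 repeats of that fit with 1 array left out, the exception being control siRNA replicate 2 (adjusted p = 0.0987). Since this probe set was known to differ, nothing further is read from the call. The mean of all 4 ABCG1 probe sets differed by −0.27, so the size given for the gene depends on the probe set.

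ABCA1 was lower at its 2 brighter probe sets, but the groups overlapped at both. The arrays of 203505_at read 6.41, 6.36 and 6.14 with ANRIL siRNA, against 6.68, 6.75 and 6.28 with control siRNA. Control replicate 3 stood well under the other two controls, inside the ANRIL siRNA range. The difference was −0.26 ± 0.12 (SE, 95% interval −0.54 to 0.01), or 1.20-fold. The next probe set, 203504_s_at, gave 6.23, 5.99 and 5.94 in ANRIL siRNA cells, against 6.43, 6.50 and 6.01 in control cells. It repeated the order of arrays almost exactly and differed by −0.26 ± 0.13. Without control siRNA replicate 3 the differences were −0.41 at both, over 1.5 times the values with all arrays, and without control siRNA replicate 2 they were −0.17. Neither was called by the trended prior (adjusted p = 0.255 and 0.278). The 2 dimmer ABCA1 probe sets, at percentiles 27.7 and 9.24, differed by 0.00 ± 0.07 and −0.01 ± 0.08.

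**Figure D1:**
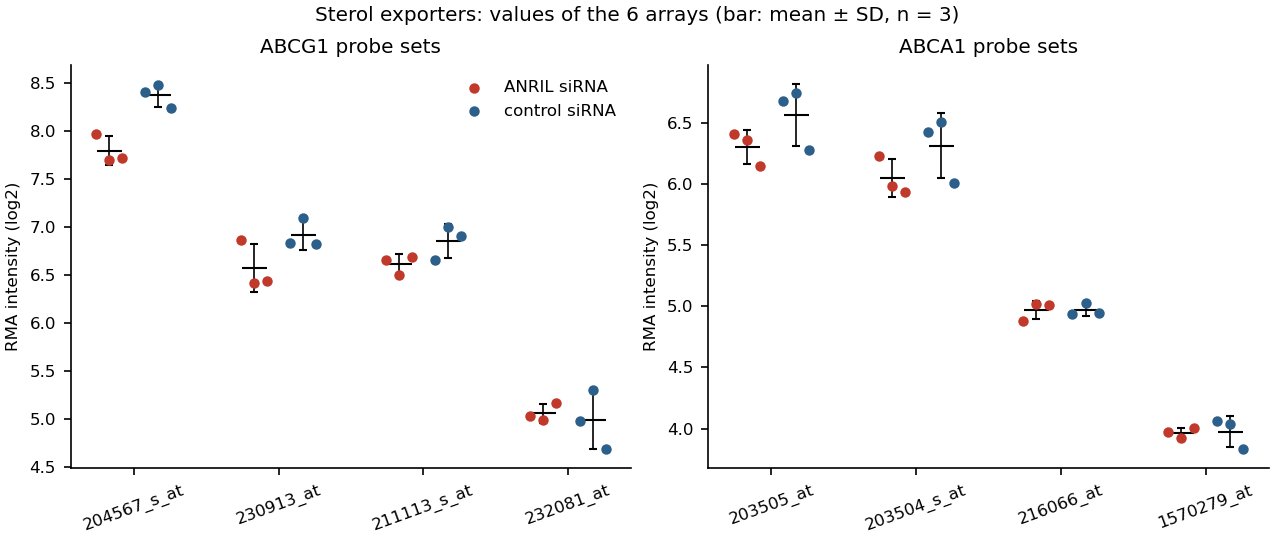
RMA log2 intensity (y axis) of each array at the 4 ABCG1 probe sets (left) and the 4 ABCA1 probe sets (right), in order of mean signal, with ANRIL siRNA in red left of control siRNA in blue and mean ± SD of 3 arrays as bars. The groups are apart only at ABCG1 204567_s_at, and control replicate 3 is the low control point at both brighter ABCA1 probe sets.

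The 2 exporters shared a direction at their brighter probe sets. ANRIL siRNA replicate 1 was the highest of its group at the brightest probe set of each gene. The low control was replicate 3 for both, but only for ABCA1 did it fall inside the ANRIL siRNA range.

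Of the receptors, NR1H3 (LXR alpha) was read by 203920_at, at 6.63, 6.70 and 6.66 in ANRIL siRNA cells, against 6.72, 6.64 and 6.63 in control cells. The groups overlapped almost wholly. The difference was −0.00 ± 0.06 (SE), and the interval of −0.15 to 0.14 bounds how large a difference in either direction these arrays allow. NR1H2 (LXR beta), the form found in most tissues, was not analysed here.

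MYLIP, the ligase, gave a split reading. At 3 of its 6 probe sets the ANRIL siRNA arrays all lay below the control arrays, while the brightest showed overlapping groups and the dimmest lay the other way. The largest difference was at 228098_s_at, which read 8.83, 8.87 and 8.88 with ANRIL siRNA, against 9.19, 9.28 and 9.14 with control siRNA (−0.34 ± 0.07, SE). The gap between the groups was wider than the range within either of them. The array values of 223129_x_at were 8.12, 8.09 and 8.11 with ANRIL siRNA, against 8.29, 8.40 and 8.34 with control siRNA (−0.24 ± 0.06). Those of 220319_s_at were 8.06, 7.91 and 8.01 with ANRIL siRNA, against 8.21, 8.26 and 8.25 with control siRNA (−0.24 ± 0.07). These 3 probe sets therefore separated the groups without exception among the arrays.

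The brightest MYLIP probe set, 223130_s_at, read 9.58, 9.52 and 9.41 with ANRIL siRNA, against 9.52, 9.58 and 9.62 with control siRNA. It differed by −0.06 ± 0.07, and after cyclic loess normalization by 0.01. At 227707_at the difference was 0.04 ± 0.07. At 228097_at, the dimmest, the arrays read 5.22, 5.16 and 5.30 with ANRIL siRNA, against 5.07, 5.15 and 5.04 with control siRNA, and the ANRIL siRNA arrays were all higher (0.14 ± 0.07). The annotation lists the same source sequence for 228097_at and 228098_s_at, which stood on opposite sides of 0. The suffix _s_at marks probes shared by several transcripts and _x_at probes that may bind other sequences, and the 3 lower MYLIP probe sets, like the brightest one, each carry such a suffix. Without such probe sets MYLIP was represented by 227707_at alone in the gene-level fit. ABCG1 204567_s_at and 211113_s_at and ABCA1 203504_s_at carry the suffix _s_at as well. Without such probe sets ABCG1 was represented by 230913_at, where the groups overlapped, and its gene-level difference was −0.35. With the trended prior 228098_s_at was called (adjusted p = 0.0182), in 2 of 6 repeats with 1 array left out, and no other MYLIP probe set was.

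The HDL receptor SCARB1 showed no shared direction. Its brightest probe set, 1552256_a_at, read 9.48, 9.62 and 9.47 in ANRIL siRNA cells, against 9.48, 9.60 and 9.57 in control cells, a difference of −0.02 ± 0.07 (SE, 95% interval −0.18 to 0.14). The second, 201819_at, read 8.18, 8.20 and 8.16 in ANRIL siRNA cells, against 8.22, 8.34 and 8.26 in control cells. The groups did not overlap there, yet the difference of −0.09 ± 0.06 was small. Among the dimmer probe sets 232421_at differed by 0.22 ± 0.10 and 215834_x_at by −0.14 ± 0.11, with overlapping groups at both, and 215835_at by 0.07 ± 0.07. Both larger values depended on single arrays. At 232421_at the difference was 0.14 with control siRNA replicate 2 left out and 0.33 with ANRIL siRNA replicate 2 left out, while at 215834_x_at leaving out replicate 2 of ANRIL siRNA gave −0.03 and leaving out replicate 3 of it −0.25.

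The lysosomal carriers were each read by a probe set of the brightest decile of mean signal. NPC1, the membrane protein that takes sterol across the lysosomal membrane, read 10.43, 10.51 and 10.39 with ANRIL siRNA at 202679_at, against 10.42, 10.59 and 10.46 with control siRNA, with overlapping groups and a difference of −0.05 ± 0.07. Its other 3 probe sets lay at percentiles 5.75 to 38.1 of mean signal, and differed by −0.08 to 0.08. NPC2, the soluble protein that hands sterol to NPC1, read 13.01, 13.06 and 13.05 with ANRIL siRNA at 200701_at, against 13.10, 13.20 and 13.12 with control siRNA. The groups did not overlap, but the difference was −0.10 ± 0.06, close to the median of −0.08 over all probe sets of the brightest decile.

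**Figure D2:**
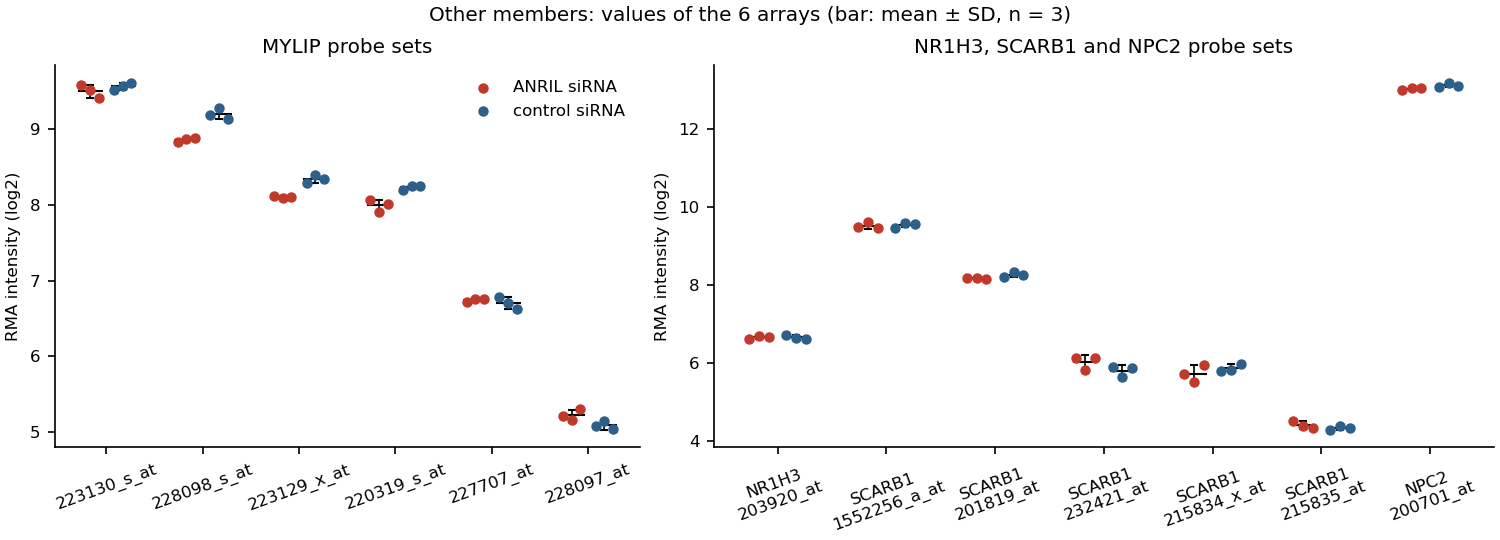
RMA log2 intensity (y axis) of each array at the MYLIP probe sets (left) and at the probe sets of NR1H3, SCARB1 and NPC2 (right), with ANRIL siRNA in red left of control siRNA in blue and mean ± SD of 3 arrays as bars. The groups stand apart with ANRIL siRNA lower at MYLIP 228098_s_at, 223129_x_at and 220319_s_at, and by less at SCARB1 201819_at and NPC2 200701_at. They stand apart with ANRIL siRNA higher at MYLIP 228097_at.

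Over the 25 member probe sets, 18 lay below 0, with a median of −0.06, beside 46.1% below 0 and a median of 0.01 over all probe sets. The groups did not overlap at 7, of which 6 were lower and 1 higher. Over all probe sets the groups did not overlap with ANRIL siRNA lower at 9.97%, and higher at 11.0%. At an unadjusted p under 0.05 there were 6 lower, from ABCG1 and MYLIP with 3 each, and 0 higher, where all probe sets gave 6.14% lower and 8.96% higher. These counts rest on the comparison that the choice of members used, and nothing is read from them. At their brightest probe sets all 7 measured genes lay below 0. That direction was not kept by 3 of them after cyclic loess, a normalization that removes trends with signal, where MYLIP stood at 0.01, SCARB1 at 0.05 and NPC1 at 0.04.

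**Figure D3:**
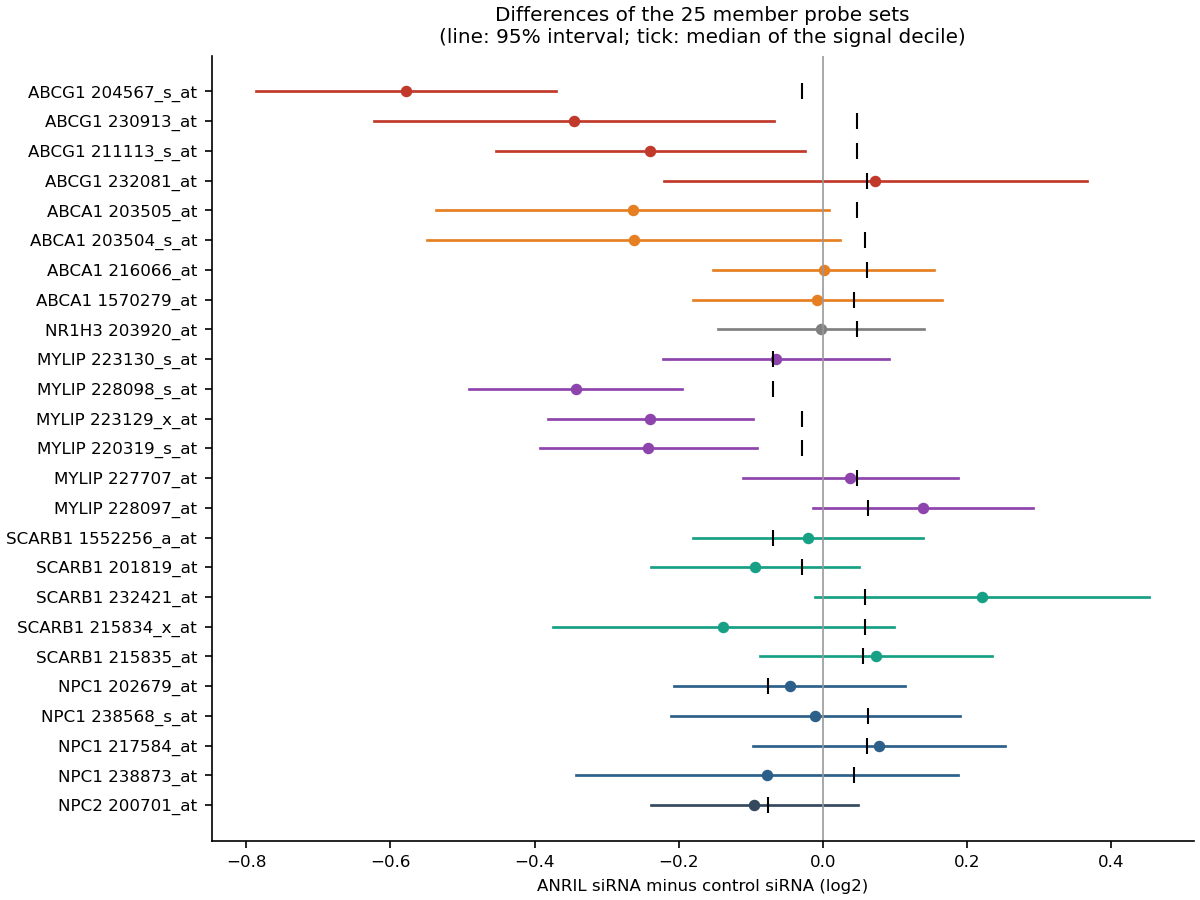
Difference between ANRIL siRNA and control siRNA (x axis, log2) at each of the 25 member probe sets, with the 95% interval of the limma fit as a line and, as a black tick, the median difference of all probe sets in the same decile of mean signal. The intervals of 3 ABCG1 and 3 MYLIP probe sets lie wholly below 0, and those of the others include 0.

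The differences have to be read against a trend with signal on these arrays. The median over all probe sets was 0.06 in decile 4 of mean signal, −0.03 in decile 8 and −0.08 in decile 10. The brightest ABCG1 probe set is in decile 8 and the brighter ABCA1 probe sets in deciles 6 and 5, where the medians were 0.05 and 0.06, so the ABCA1 values lay below probe sets that tended higher. After cyclic loess 204567_s_at differed by −0.55, the 2 brighter ABCA1 probe sets by −0.31 and −0.32, and MYLIP 228098_s_at by −0.28. With loess and the trended prior together ABCG1 204567_s_at was the only member probe set called (adjusted p = 0.0264), where 0.143% of all probe sets were (0.106% lower and 0.0366% higher). At gene level that setting called 0.678%, 0.379% lower and 0.298% higher, ABCG1 being the only member.

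**Figure D4:**
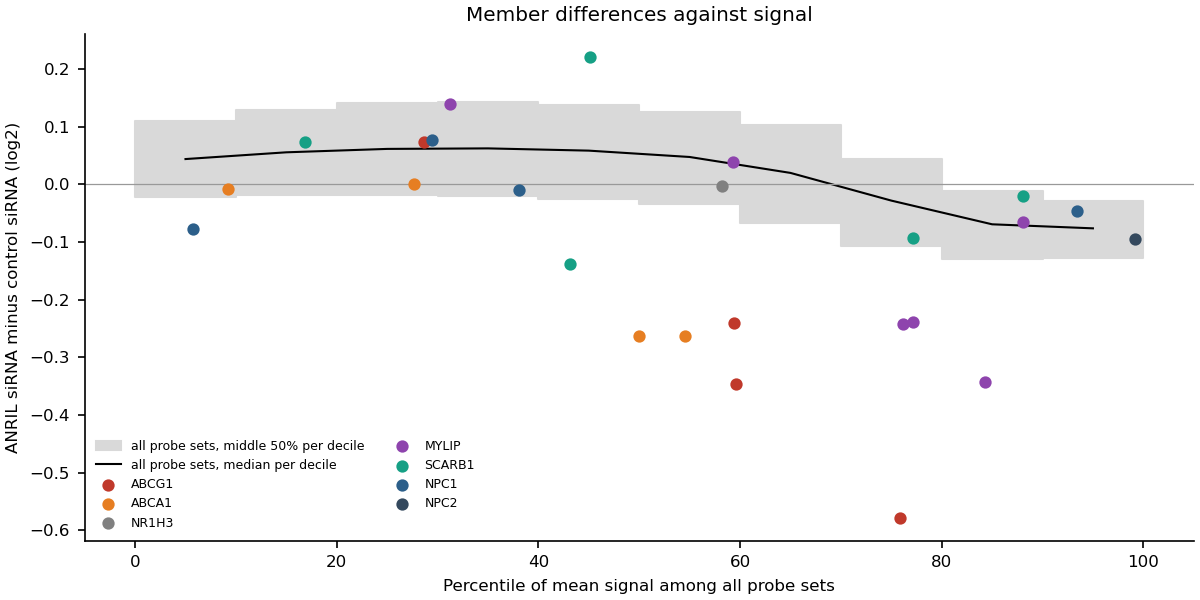
Difference between ANRIL siRNA and control siRNA (y axis, log2) against the percentile of mean signal (x axis) for the member probe sets, over the median (line) and middle 50% (grey) of all probe sets in each decile. The 8 lowest points belong to ABCG1, ABCA1 and MYLIP, while the brightest probe sets of SCARB1, NPC1 and NPC2 lie near the line.

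The cells read as endothelial. All 10 endothelial markers, such as PECAM1 and CDH5, lay above the median signal of genes, while 8 of 9 markers of macrophages and leukocytes, cells also rich in ABCG1 and ABCA1, lay below it. Above it lay also 3 of 8 smooth muscle markers, with ACTA2 and TAGLN among them, and 3 of 6 epithelial markers, with KRT18 and KRT19. Of the fibroblast markers 1 of 6 did. The mean level of the endothelial list was 11.33 to 11.42 over the ANRIL siRNA arrays, against 11.55 to 11.62 over the control arrays, and 10 of 10 markers were lower. The trended prior called 6 of them, all lower (2.15% of all genes were), and 4 when applied after cyclic loess (0.379% of all genes, lower). That of the macrophage and leukocyte list was 5.55 to 5.72 over the ANRIL siRNA arrays, against 5.49 to 5.59 over the control arrays, and 8 of 9 were higher. The endothelial markers are bright and most leukocyte markers dim, and of all probe sets 20.7% in decile 9 and 12.9% in decile 10 lay above 0, against 67.5% in decile 1 and 70.1% in decile 3. The smooth muscle list spanned 7.26 to 7.36 with ANRIL siRNA, against 7.24 to 7.34 with control siRNA, the fibroblast list 6.23 to 6.26 with ANRIL siRNA, against 6.27 to 6.30 with control siRNA, and the epithelial list 7.52 to 7.56 with ANRIL siRNA, against 7.60 to 7.63 with control siRNA. Signal at the 3′ end of ACTB exceeded that at its 5′ end by 0.72 ± 0.13 with ANRIL siRNA and 0.54 ± 0.05 with control siRNA (SD, n = 3 each), with overlapping groups. For GAPDH the same difference was 0.04 to 0.09 with ANRIL siRNA, against −0.01 to 0.01 with control siRNA, and the groups did not overlap. The part of these shifts in the ABCG1, ABCA1 and MYLIP differences was not tested. In such samples fewer cells of a type and less RNA per cell cannot be told apart. The 1 ANRIL probe set read near the floor, at percentile 9.39, with 3.69, 4.05 and 4.05 in ANRIL siRNA cells, against 4.08, 4.05 and 3.95 in control cells, and so gave no check of the knockdown.

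The wider pathway was followed in 9 lists of genes around sterol efflux, with 107 of 124 genes measured. The limma fit called 0 of them, with a smallest adjusted p of 0.144, beside 0.0% of all genes. At an unadjusted p under 0.05, 16 were lower (15%, beside 8.16% of all genes) and 4 higher (3.74%, beside 9.83% of all genes). The groups did not overlap for 27 (25.2%, beside 23.4% of all genes), of which 21 were lower (19.6%, beside 12.8%) and 6 higher (5.61%, beside 10.6%). The median over these genes was −0.01, against −0.00 over all genes.

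Most genes that act with LXR lay below 0, while those that answer to it held no common direction. Of 7 measured LXR partners and coregulators 5 lay below 0 (median −0.08), among them MED1, a subunit of the Mediator complex (−0.16 ± 0.07, SE), the coactivator NCOA2 (−0.12 ± 0.06) and the heterodimer partner RXRA (−0.10 ± 0.06). MED1 and NCOA2 each had only 2 of 4 probe sets below 0, while RXRA had 2 of 2. RXRG, a dim probe set, stood at 0.10 ± 0.06. The groups did not overlap for 4 of the 7 (beside 23.4% of all genes), 3 of them lower and RXRG higher. After cyclic loess the median of these partners was −0.04. Of 17 other LXR target genes 8 lay below 0 and 9 above, with a median of 0.01. The phospholipid transfer protein gene PLTP read 7.60, 7.86 and 7.75 with ANRIL siRNA, against 8.05, 8.05 and 7.88 with control siRNA (−0.26 ± 0.08, adjusted p = 0.178). LPL, which encodes lipoprotein lipase, went the other way, at 7.14, 7.04 and 7.14 with ANRIL siRNA, against 6.79, 6.91 and 6.98 with control siRNA (0.21 ± 0.07, adjusted p = 0.181). The groups were apart for both genes, in opposite directions. CETP, the cholesteryl ester transfer protein, differed by −0.20 ± 0.09 and the sterol transporter ABCG8 by 0.14 ± 0.07, both with overlapping groups.

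The oxysterol enzymes, which make or modify LXR ligands, were dim, with 6 of 7 below the median signal and 6 of 7 above 0 (median 0.09). CYP7B1, an oxysterol hydroxylase, differed by 0.16 ± 0.06 (SE), the cholesterol hydroxylase CH25H by 0.11 ± 0.07, the sulfotransferase SULT2B1 by 0.11 ± 0.07 and the neuronal cholesterol hydroxylase CYP46A1 by 0.09 ± 0.06. Dim probe sets in general tended higher, with 69.3% above 0 in decile 4. After cyclic loess the list's median was 0.04.

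Of 21 genes of intracellular sterol traffic and storage 15 lay below 0 (median −0.06), and 18 of the 21 were above the median signal. In the brighter part of that range, deciles 8 to 10, probe sets tended lower. OSBPL10, an oxysterol-binding protein relative, read 10.02, 9.85 and 9.90 with ANRIL siRNA, against 10.14, 10.20 and 10.16 with control siRNA (−0.25 ± 0.06). It was the only gene of the list called by the trended prior (adjusted p = 0.0237), though only 2 of its 5 probe sets lay below 0. GRAMD1A, which carries sterol from the plasma membrane to the endoplasmic reticulum, differed by −0.24 ± 0.08, the cholesteryl ester hydrolase gene NCEH1 by −0.19 ± 0.06 and the lysosomal lipase gene LIPA by −0.16 ± 0.06. The groups did not overlap for these 3, but GRAMD1A and LIPA each had only 1 of 2 probe sets below 0.

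**Figure D5:**
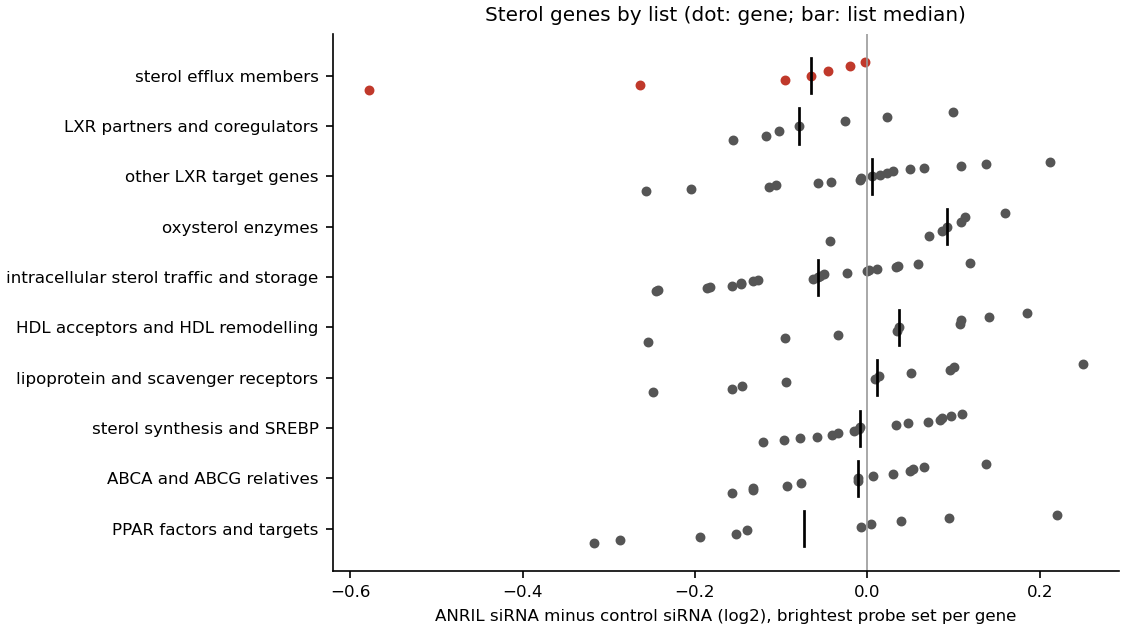
Difference between ANRIL siRNA and control siRNA (x axis, log2) of each measured gene at its brightest probe set, by list, with the list's median as a black bar and dots spread vertically only to be seen. ABCG1 at −0.58 and ABCA1 at −0.26 are the leftmost points of the sterol efflux members in red, and the lists in grey lie between −0.32 and 0.25.

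HDL acceptors and remodelling genes had 3 of 9 below 0 (median 0.04). CAV1, the caveolar coat protein that binds cholesterol, read 12.95, 12.92 and 12.86 with ANRIL siRNA, against 13.22, 13.21 and 13.07 with control siRNA (−0.25 ± 0.07, SE), with the groups apart. APOA2 at 0.19 ± 0.10, PDZK1, the scaffold that binds SCARB1, at 0.14 ± 0.07 and ABCA7 at −0.10 ± 0.08 had overlapping groups. Of 10 lipoprotein and scavenger receptors 4 lay below 0. STAB1, a scavenger receptor of endothelium, differed by −0.25 ± 0.07 and was lower at all 4 of its probe sets. LRP8, a lipoprotein receptor of the family that MYLIP acts on, differed by −0.15 ± 0.06, and ACVRL1, which also binds LDL in endothelium, by −0.16 ± 0.07. USP2, a deubiquitinase known to act on MYLIP, differed by 0.25 ± 0.09, but only 2 of its 4 probe sets lay above 0.

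Sterol synthesis under SREBP had 9 of 16 genes below 0 and a median of −0.01, and none of the 16 had an unadjusted p under 0.05. All 16 were above the median signal, and in the brighter part of that range, deciles 8 to 10, probe sets tended lower. After cyclic loess the list's median was 0.07. SCAP, the escort of SREBP, differed by −0.12 ± 0.07 (SE), SREBF2 by −0.10 ± 0.07, HMGCS1 by 0.11 ± 0.07 and IDI1 by 0.10 ± 0.07. The relatives of the exporters in the ABCA and ABCG families had 7 of 13 below 0 (median −0.01). None of the 13 had an unadjusted p under 0.05. By p, ABCA3 came first at −0.13 ± 0.06, followed by ABCG8, which was higher, at 0.14 ± 0.07. ABCA5 at −0.16 ± 0.08 and ABCG2 at −0.13 ± 0.08 came next.

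PPAR factors and their targets, a pathway known to feed into LXR in macrophages, had 6 of 10 genes below 0 (median −0.07), and the groups did not overlap for 6 of the 10, beside 23.4% of all genes. ANGPTL4, an inhibitor of lipoprotein lipase, read 10.72, 10.76 and 10.70 with ANRIL siRNA, against 10.99, 11.08 and 10.97 with control siRNA (−0.29 ± 0.06, SE, adjusted p = 0.144). The pyruvate dehydrogenase kinase gene PDK4 read 8.84, 8.76 and 8.59 with ANRIL siRNA, against 9.01, 9.08 and 9.05 with control siRNA (−0.32 ± 0.07, adjusted p = 0.147). CPT1A, which takes fatty acids into mitochondrial oxidation, differed by −0.19 ± 0.06, and the coactivator PPARGC1B by 0.22 ± 0.07, though 1 of its 4 probe sets lay below 0. Under the trended prior ANGPTL4, PDK4, OSBPL10, CAV1 and STAB1 were the 5 genes called among the 107, all lower (4.67% of them, beside 2.15% of all genes).

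The genes whose profile over the 6 arrays was most like that of ABCG1, among 9882 above the median signal, were SESN3 (r = 0.9995), FOXO3 (0.9953), TNPO2 (0.9949), ADAMTS18 (0.9933) and TMEM30A (0.9925). ABCG1 itself separates the groups, so likeness to it fixes that these genes do too, with ANRIL siRNA lower. The differences were −0.23 ± 0.06 (SE) for SESN3, −0.20 ± 0.06 for FOXO3, −0.19 ± 0.06 for TNPO2, −0.47 ± 0.09 for ADAMTS18 and −0.12 ± 0.06 for TMEM30A. The most alike, SESN3, read 8.26, 8.14 and 8.15 in ANRIL siRNA cells, against 8.42, 8.45 and 8.36 in control cells. For ABCA1 they were CCDC88A (r = 0.9934), GTPBP4 (0.9917), ITPRID2 (0.9887), MCC (0.9855) and AKAP11 (0.9847), all with overlapping groups and differences of −0.11 to −0.06. These are the highest of many correlations over 6 arrays and are given as a description.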

How the data were processed

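Values were analysed on the log2 scale as deposited (54675 probe sets, 6 arrays). RMA, affy and limma are the tools named in the submitters' processing notes, without versions or filters. As a method, RMA corrects background, quantile-normalizes and summarises probes on the log2 scale. Here 62 control probe sets were left out. Of the rest 41091 had 1 symbol in the platform annotation, 1801 several and 11721 were not listed. Symbols were updated through Entrez identifiers to RefSeq (GRCh38.p14), which matched 41037. Genes were represented by their brightest probe set. Fits used lmFit and eBayes of limma 3.58.1 (R 4.3.3) with a constant prior, without the replicate number, and Benjamini-Hochberg adjustment over all features, two-sided at 0.05. The fit was tested on simulated data in which every probe set had the same SD. On these arrays the spread varied with signal, so that test does not show whether a constant prior suits them. Named genes were the members, the 4 of smallest p in each list, and the 5 most like ABCG1 or ABCA1. The members and lists were chosen with earlier results of these data known. Alternatives were the replicate block, other priors, array weights, normalizations, filters and probe set rules, and each array left out. Combinations with the trended prior were added after seeing the data. The small number of arrays and the wider spread of dim probe sets limit the precision.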

Additional observations from a re-analysis of the deposited data

How the results depend on the processing

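The counts of calls depended on the prior and on filters. The trended robust prior called 344 probe sets, 541 genes and 5 of the pathway genes. Centring arrays on their medians called 4 probe sets and 32 genes, and features above the median signal gave 1 probe set, 309 genes and 5 pathway genes. Cyclic loess with the trended prior called 78 probe sets, 134 genes and 3 pathway genes, which were ANGPTL4 and CAV1, lower, and SQLE, higher, named after its value was seen. With repeated quantile normalization, cyclic loess alone, array weights, the replicate block or any 1 array left out, the counts were 0, and for genes also with both other probe set rules.

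At gene level ABCG1 lay between −0.63 and −0.27 over the settings with all arrays and between −0.67 and −0.53 with 1 left out. ABCG1 passed at gene level when only genes above the median signal were fitted, when arrays were centred and with the trended prior, alone or after cyclic loess, and ABCA1 only with the trended prior without control siRNA replicate 3 (limma, adjusted p = 0.0263). The signs of ABCG1, ABCA1 and NPC2 held in every alternative run. Those of MYLIP, SCARB1, NPC1 and NR1H3, all near 0, turned in 4, 10, 5 and 4 of 22, 22, 22 and 21 alternatives. Not all of these alternatives could turn a sign. Changing the prior, adding the replicate block or fitting only genes above the median signal left each difference as it was. The trended fits after cyclic loess or with 1 array left out repeat the differences of the plain fits, so such turns are counted again. The median of the members' differences ranged from −0.12 (arrays centred) to −0.02 (cyclic loess). Deviations of same-numbered arrays from their group means correlated at 0.06, 0.14 and −0.04, beside −0.18 to 0.14 for arrays of different numbers. The labels do not say whether the replicate numbers pair the samples, and these correlations cannot settle it. The replicate block called 0 probe sets. Dim probe sets limit what can be read, with a median residual SD of 0.12 in decile 3 against 0.06 in decile 10.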
